A study of Mus musculus with 6 samples.

Results

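ATP-binding cassette (ABC) efflux transporters pump drugs and conjugated metabolites out of cells, and 8 of their genes were followed in mouse lung tumours with and without Keap1. The 8 genes were Abcc1, Abcc2, Abcc3, Abcc4, Abcc5, Abcg2, Abcb1a and Abcb1b. They were chosen by name, as the rows of the deposited count table whose Ensembl identifier carries one of these symbols, and all 8 were found among 56980 genes. All 8 also passed the filter on low counts, as did 17901 genes in all, and Abcc2 passed only through the Keap1 knockout libraries. The Keap1 knockout group consisted of 3 libraries from QKO tumours in which Keap1 was knocked out. The control group consisted of 3 libraries from QKO tumours labelled Control, so both groups share the QKO background, which the labels do not spell out. The samples are labelled small cell lung cancer of the lung, an aggressive neuroendocrine carcinoma, and were taken about 4 months after virus injection to ask how Keap1 loss changes the transcriptome. The labels used here do not give the virus, the way in which Keap1 was inactivated, the strain or age of the mice, or whether each sample is a tumour of its own animal. The p-values therefore measure the spread between these samples, which may be technical.

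KEAP1 marks NRF2, a transcription factor, for destruction by the proteasome. NRF2, paired with small MAF proteins, binds antioxidant response elements and switches on genes for glutathione synthesis, conjugation and export. Export is the last step of detoxification: a compound is first oxidised or reduced, then joined to glutathione, glucuronate or sulfate, and the conjugate is pumped out by ABC proteins at the cost of ATP. The ABCC proteins (multidrug resistance-associated proteins) mainly carry organic anions and conjugates, whereas the P-glycoproteins of the ABCB1 type and ABCG2 (breast cancer resistance protein) are best known for exporting drugs and are prominent at endothelial and epithelial barriers.

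The libraries held 21801647 to 23759892 reads on genes in knockouts and 18731515 to 20065069 in controls. Levels are given as CPM, that is, reads as a share of the TMM-adjusted library total (counts per megaread), with SD over 3 libraries. Keap1 RNA itself stood at 80.2 ± 12.8 CPM in knockouts and 70.5 ± 10.4 CPM in controls (SD, n = 3 each); edgeR did not call it (log2 fold change 0.18 ± 0.20, SE, adjusted p 0.564 in edgeR), so the RNA level does not check the genotype labels. Knockouts were close to one another (Pearson correlations of log2 CPM across genes from 0.964 to 0.979), whereas the controls differed among themselves (0.815 to 0.912). The neuroendocrine markers Insm1 and Chga reached 622 and 948 CPM in control 3, against at most 0.366 CPM in any knockout and at most 18.0 CPM in controls 1 and 2. Other markers of the labelled tumour type were not near 0 in the knockouts: Calca stood at 116, 32.5 and 19.999 CPM in knockouts and 37.0, 0.941 and 2037 CPM in controls, and Uchl1 at 47.9, 16.6 and 28.3 CPM in knockouts and 14.6, 18.6 and 422 CPM in controls. Control 1 stood apart by its basal epithelial markers, with a summed level of 6868 CPM over 6 genes, and control 2 by the collagen genes Col1a1 and Col1a2, which made up 93.2% of its summed 34857 CPM over 10 fibroblast markers. The other 8 fibroblast markers summed to 235 to 592 CPM in knockouts and to 336, 2360 and 3805 CPM in controls 1 to 3. In such bulk libraries, a change in the RNA per cell cannot be told apart from a change in the share of cells that hold it.

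Every knockout library held more RNA of each of the 5 ABCC genes in the set than any control, but not of Abcg2, Abcb1a or Abcb1b. Of the 8 transporters, Abcc1, Abcc2 and Abcc5 rose and none fell by edgeR's quasi-likelihood test at a Benjamini-Hochberg adjusted p below 0.05. Among all tested genes 2.42% rose and 1.89% fell by that rule, 4.31% in all. At an unadjusted p below 0.05, 6 of the 8 would count, against 30.7% of all tested genes. Such a separation upwards was seen in 21.5% of all tested genes. For Abcg2 all 3 knockouts lay below all 3 controls, as in 19.1% of all tested genes. The groups overlapped for Abcb1a and Abcb1b, as for 59.3% of all tested genes. The median log2 fold change was 2.59 over the 8 transporters, against -0.08 over all tested genes. Together the 8 genes took 2114 to 2824 CPM in knockouts and 169 to 448 CPM in controls.

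**Figure D1:**
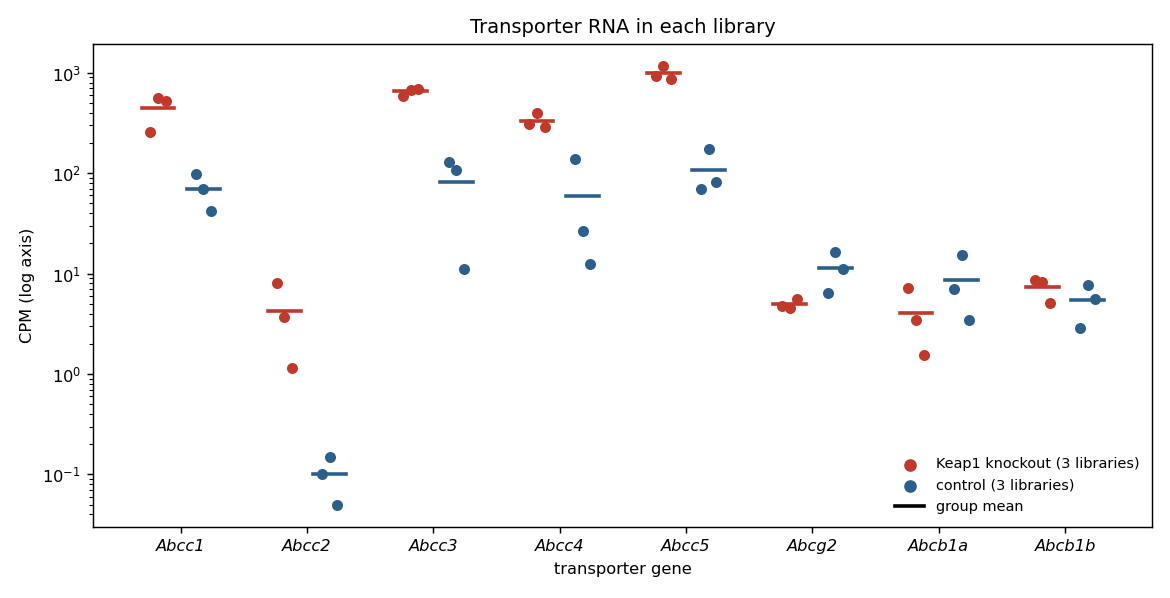
Each point is 1 library and each bar a group mean, in CPM on a log axis, with Keap1 knockout libraries on the left and controls on the right of each gene. The knockouts lie above the controls for the 5 Abcc genes, with gaps of 2.12-fold (Abcc4) to 7.69-fold (Abcc2) between the lowest knockout and the highest control, while Abcg2 is lower in all 3 knockouts and Abcb1a and Abcb1b overlap.

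Abcc5 had the smallest adjusted p of the set. It encodes MRP5, an exporter of cyclic nucleotides and nucleotide analogues. Its RNA (ENSMUSG00000022822) stood at 938, 1170 and 863 CPM in knockouts 1 to 3, against 69.1, 172 and 82.6 CPM in controls 1 to 3. The lowest knockout thus lay 5.01 times above the highest control, which was control 2. edgeR put the log2 fold change at 3.20 ± 0.42 (SE; adjusted p 0.0314). This call ended without any one of the knockout libraries (adjusted p of 0.137, 0.196 and 0.180 without knockouts 1, 2 and 3) but not without any one control, where it ran from 0.0204 to 0.0431.

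Abcc1, the gene of MRP1, which exports glutathione conjugates such as leukotriene C4 and oxidised glutathione, rose as well. Its RNA (ENSMUSG00000023088) stood at 258, 558 and 526 CPM in knockouts 1 to 3 and at 97.6, 69.0 and 42.5 CPM in controls 1 to 3. Knockout 1 held the lowest of the 3 knockout levels, still 2.64 times that of control 1, the highest control. edgeR put the log2 fold change at 2.68 ± 0.45 (SE; adjusted p 0.0403). The call ended without control 2 (0.0732) and without knockout 1, 2 or 3 (0.126, 0.217 and 0.209), and in limma voom with a spread per genotype (0.0551). Over the whole table edgeR called 2, 0 and 0 genes higher without knockouts 1, 2 and 3.

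Abcc2 showed the largest fold change of the set, over controls with almost no reads. It encodes MRP2, an apical pump for conjugated organic anions such as bilirubin glucuronides. The libraries of knockouts 1 to 3 held 172, 81 and 26 reads of Abcc2 (ENSMUSG00000025194), and those of controls 1 to 3 held 2, 3 and 1. In CPM these are 8.02, 3.71 and 1.14 in knockouts and 0.102, 0.149 and 0.0498 in controls. The filter on low counts thus kept Abcc2 only through the group in which it was high. Knockout 1 held 7.02 times as much as knockout 3, the widest spread of any of the 8 genes within the knockouts. The reads pooled over each group and scaled by the library totals gave a ratio of 42.2, with a 95% exact counting interval of 19.2 to 116 that covers counting error only. edgeR put the log2 fold change at 5.34 ± 0.94 (SE; adjusted p 0.0429), and without knockout 1 it was 4.54. The call ended without control 1 (0.0706), control 2 (0.0728) or any knockout (0.138 to 0.220), and in limma voom (0.0504) also with a spread per genotype (0.222).

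The promoter window of Abcc2 in RefSeq's GRCm38.p6 table is shown because it holds the core of an antioxidant response element, searched as TGACNNNGC on both strands. Windows reach from 250 bases before to 50 after the annotated start. The table had 9 windows for 6 of the 8 genes, none of them for Abcc1 or Abcc3. The core was found in the window of Abcc2, both windows of Abcc4 and the window of Abcb1a, and in 12.4% of all 32851 windows in the table. That is a share of windows and not of genes, and a gene can have several windows. Capitals mark the match, at bases 153 to 161 of the Abcc2 window (chr19:43782058-43782357, plus strand). The window of Abcc5 (chr16:20426345-20426644, minus strand), the gene with the smallest p of the set, has no match to these letters.
Abcc2: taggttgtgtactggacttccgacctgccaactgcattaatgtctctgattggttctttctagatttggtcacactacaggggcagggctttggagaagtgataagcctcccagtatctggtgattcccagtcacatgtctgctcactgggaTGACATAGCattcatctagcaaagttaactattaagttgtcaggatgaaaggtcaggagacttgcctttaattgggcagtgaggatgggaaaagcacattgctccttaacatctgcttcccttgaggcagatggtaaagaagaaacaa
Abcc5: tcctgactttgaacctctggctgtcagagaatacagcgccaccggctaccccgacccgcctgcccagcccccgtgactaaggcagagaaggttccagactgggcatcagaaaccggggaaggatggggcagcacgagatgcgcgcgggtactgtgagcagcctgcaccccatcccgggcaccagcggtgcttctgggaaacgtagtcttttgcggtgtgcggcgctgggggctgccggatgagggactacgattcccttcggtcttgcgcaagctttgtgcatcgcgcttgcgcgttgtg

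Abcc3 and Abcc4 were higher in every knockout than in any control but did not pass the edgeR test, and their controls spread over a wide range. Abcc3 encodes MRP3, a basolateral exporter of glucuronides and bile salts. Abcc3 (ENSMUSG00000020865) stood at 583, 679 and 694 CPM in knockouts 1 to 3, against 128, 107 and 11.1 CPM in controls 1 to 3. The knockouts lay within 1.19-fold of each other, whereas control 3 was 11.5-fold below control 1. edgeR put the log2 fold change at 2.99 ± 0.84 (SE; adjusted p 0.0853). Without control 3, Abcc3 passed with an adjusted p of 0.00805 and a log2 fold change of 2.47 in edgeR.

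Abcc4 encodes MRP4, which exports cyclic nucleotides, prostanoids and conjugated steroids. Abcc4 (ENSMUSG00000032849) stood at 307, 396 and 291 CPM in knockouts 1 to 3 and at 137, 26.8 and 12.4 CPM in controls 1 to 3. Control 1 was the high one here, and the lowest knockout lay 2.12 times above it. edgeR put the log2 fold change at 2.49 ± 0.89 (SE; adjusted p 0.130). Without control 1, edgeR gave 4.09 and an adjusted p of 0.0368. Abcc3 and Abcc4 also passed in limma voom with a spread per genotype (adjusted p of 0.0412 and 0.0470) and in DESeq2 (0.00245 and 0.0221). The 2 annotated promoter windows of Abcc4 each hold 1 core, at bases 226 to 234 of the first, where it reads TGACCCCGC on the opposite strand, and at bases 228 to 236 of the second. Both are shown (chr14:118706170-118706469 and chr14:118676882-118677181, minus strand, GRCm38.p6) with the match in capitals.
Abcc4 first window: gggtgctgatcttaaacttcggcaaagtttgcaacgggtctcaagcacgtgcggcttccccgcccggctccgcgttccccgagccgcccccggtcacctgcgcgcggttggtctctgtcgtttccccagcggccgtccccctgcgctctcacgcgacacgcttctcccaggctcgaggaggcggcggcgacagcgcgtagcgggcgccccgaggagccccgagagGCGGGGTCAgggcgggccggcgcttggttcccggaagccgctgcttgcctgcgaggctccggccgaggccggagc
Abcc4 second window: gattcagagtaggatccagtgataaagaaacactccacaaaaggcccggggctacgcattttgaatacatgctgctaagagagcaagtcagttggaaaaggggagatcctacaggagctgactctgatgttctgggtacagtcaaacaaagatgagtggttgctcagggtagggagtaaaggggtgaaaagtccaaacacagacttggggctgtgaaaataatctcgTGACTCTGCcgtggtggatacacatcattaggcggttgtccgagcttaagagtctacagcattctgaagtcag

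Abcg2 ran opposite to the 5 ABCC genes of the set. It encodes a drug exporter that also carries urate, porphyrins and sulfate conjugates. Abcg2 (ENSMUSG00000029802) stood at 4.80, 4.53 and 5.54 CPM in knockouts 1 to 3, against 6.34, 16.5 and 11.004 CPM in controls 1 to 3. The highest knockout and the lowest control were 1.15-fold apart. The log2 fold change was -1.19 ± 0.44 (SE), which edgeR did not call (adjusted p 0.137), whereas DESeq2 gave 0.0263. Its 3 promoter windows held no TGACNNNGC.

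The P-glycoprotein genes Abcb1a and Abcb1b, which share in mouse the role that a single gene has in humans, did not differ beyond the spread between libraries. Abcb1a (ENSMUSG00000040584) stood at 7.13, 3.48 and 1.54 CPM in knockouts 1 to 3 and at 7.004, 15.4 and 3.44 CPM in controls 1 to 3. Abcb1b (ENSMUSG00000028970) stood at 8.63, 8.20 and 5.10 CPM in knockouts and at 2.89, 7.78 and 5.63 CPM in controls. The log2 fold changes were -1.09 ± 0.78 for Abcb1a and 0.43 ± 0.48 for Abcb1b (SE), and edgeR gave adjusted p of 0.375 and 0.578. Abcb1a exceeded Abcb1b in controls 1 and 2 (ratios of 2.42 and 1.98), and lay below it in knockouts 1 to 3 (0.827, 0.425 and 0.302) and in control 3 (0.611). The genes are near copies: 22.5% of the 50-base stretches in GENCODE M21 transcripts of Abcb1a, and 12.8% of those of Abcb1b, occur in transcripts of another gene, mostly the other P-glycoprotein gene, so the split of reads between them is uncertain. The same share was 0 for Abcc3 and Abcc5 and at most 0.844% for the other members. Abcb1b also overlaps an annotated antisense gene, and Abcb1a and Abcc4 overlap annotated genes on the opposite strand. Whether the authors counted by strand is not given in the sources used here.

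The promoter window of Abcb1a (chr5:8566841-8567140, plus strand, GRCm38.p6) is shown because it holds the same core, at bases 277 to 285 on the opposite strand, in a gene whose RNA did not pass.
Abcb1a: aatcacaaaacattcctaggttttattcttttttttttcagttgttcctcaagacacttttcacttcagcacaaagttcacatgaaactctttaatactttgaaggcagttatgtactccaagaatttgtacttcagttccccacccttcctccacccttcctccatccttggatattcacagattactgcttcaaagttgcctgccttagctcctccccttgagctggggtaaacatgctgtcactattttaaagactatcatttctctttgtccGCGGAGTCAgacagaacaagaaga

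Abcb1a and Abcg2 were highest in control 2, where the summed markers of vessels, macrophages, fibroblasts, lymphoid cells and red cells were highest too. The fibroblast sum was highest there through Col1a1 and Col1a2. Without these genes, the other 8 fibroblast markers were highest in control 3 (3805 CPM, against 2360 CPM in control 2). The summed level of 13 endothelial markers was 324 to 504 CPM in knockouts, and 314, 653 and 212 CPM in controls 1 to 3. In 1 of the 13, Sox17, every knockout lay above every control, and in none did every knockout lie below (21.5% and 19.1% of all tested genes). The summed level of 12 macrophage markers was 615 to 1188 CPM in knockouts, and 839, 1477 and 389 CPM in controls 1 to 3. In 6 of the 12 every knockout lay below every control, against 19.1% of all tested genes. The macrophage sum was led by Lyz2, and the other 11 summed to 183 to 218 CPM in knockouts and to 382, 878 and 299 CPM in controls 1 to 3, so that every knockout lay below every control. None of these endothelial and macrophage genes was at 0 in all libraries or passed the edgeR test with all libraries. DESeq2 called 6 macrophage markers lower and 1 endothelial marker higher (14.8% and 11.8% over all genes). Without control 3 edgeR called 7 and 1, against 1641 lower and 1568 higher of 18656 genes. Among the knockouts, knockout 2 held the highest endothelial and macrophage sums (504 and 1188 CPM, Lyz2 included). Without Lyz2 the macrophage sum was highest in knockout 1 (218.5, 183.9 and 182.9 CPM in knockouts 1 to 3). Knockout 2 held the lowest Abcg2 level of the knockouts (4.53 CPM) and the middle Abcb1a level (3.48 CPM). The highest Abcb1a level of the knockouts was that of knockout 1 (7.13 CPM). The part of these cells in the levels of Abcb1a and Abcg2 was not tested. Without control 2 the log2 fold changes were -0.35 for Abcb1a and -0.78 for Abcg2 (adjusted p of 0.790 and 0.266 by edgeR).

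**Figure D2:**
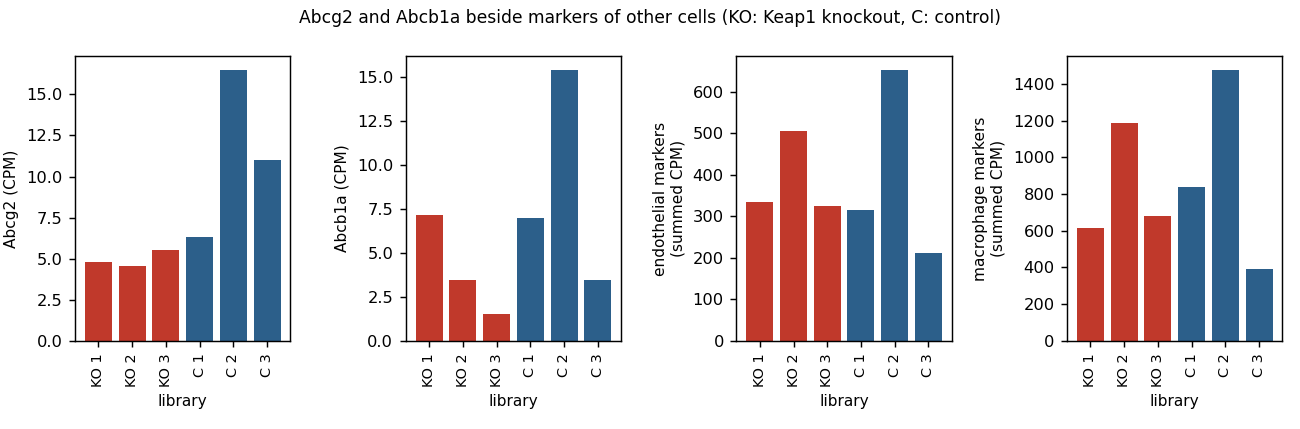
Bars give, for each library, the CPM of Abcg2 and of Abcb1a and the summed CPM of 13 endothelial and 12 macrophage markers, with knockouts (KO) left of controls (C). Control 2 is highest in all 4 panels, the macrophage sum includes Lyz2, without which every knockout lies below every control, and the 3 knockouts hold 4.53 to 5.54 CPM of Abcg2.

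Markers of other cell types differed between the libraries too. The summed level of 6 club and ciliated cell markers was 2033 to 6031 CPM in knockouts and 205 to 1608 CPM in controls, and the club cell secretoglobin gene Scgb3a2 rose by 4.25 ± 0.68 on the log2 scale (SE; adjusted p of 0.0391 by edgeR), a call that ended without control 1 or any knockout. The 10 alveolar markers summed to 1694 to 4770 CPM in knockouts and 234 to 1767 CPM in controls, and none of them passed. DESeq2 called 8 of 10 fibroblast markers lower and edgeR 0, against 14.8% and 1.89% over all genes. Fibroblast markers summed to 439 to 1256 CPM in knockouts and 591 to 34857 CPM in controls, lymphoid markers to 7.69 to 13.9 CPM in knockouts and 7.97 to 28.9 CPM in controls, and red cell markers to 8.70 to 124 CPM in knockouts and 20.6 to 334 CPM in controls. The 8 neuroendocrine markers summed to 54.5 to 214 CPM in knockouts and 72.9 to 4840 CPM in controls, and the 6 basal markers to 1.10 to 61.9 CPM in knockouts and 2.39 to 6868 CPM in controls. The part of these cells in the ABCC levels was not tested. Xist, the transcript of the inactive X chromosome of female cells, was at 1291 to 1497 CPM in knockouts 2 and 3 and control 2, and at most 2.33 CPM in the other 3 libraries. The log2 ratios of mean CPM of the 5 ABCC genes ran from 2.56 to 4.03 within the first set of libraries and from 1.88 to 6.73 within the second. Those of Abcg2 were -1.71 and -0.85. These directions were fixed in advance, since every knockout lay above every control for the 5 and below for Abcg2, so the split cannot check them. Abcb1a was lower in the first set of libraries (-2.62) and higher in the second (0.45), and Abcb1b was also lower in the first (-0.23) and higher in the second (1.02). The sets held 2 knockouts against 1 control and 1 knockout against 2 controls, without a test. When the fit also held each library's Xist level, none of the 8 genes passed in edgeR, where Abcc5 had an adjusted p of 0.0780, Abcc2 0.0990 and Abcc1 0.09997.

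Divided by the length of the exon model, the levels of Abcc1, Abcc3, Abcc4 and Abcc5 lay above those of the other 4 genes in every library of both groups. In knockouts, Abcc3 came first with 114.5 ± 10.6 CPM per kilobase, followed by Abcc5 (92.7 ± 15.01), Abcc4 (51.8 ± 8.91) and Abcc1 (29.6 ± 10.9), with SD over 3 libraries. The ranges of Abcc3 and Abcc5 overlapped, while Abcc5, Abcc4 and Abcc1 were apart from each other. Abcb1b, Abcb1a, Abcg2 and Abcc2 followed at 0.914, 0.739, 0.608 and 0.503 CPM per kilobase, each overlapping the next. In controls the same 4 ABCC genes led, at 14.4 ± 10.9 (Abcc3), 10.1 ± 5.25 (Abcc5), 9.21 ± 10.7 (Abcc4) and 4.62 ± 1.82 CPM per kilobase (Abcc1), each overlapping the next of the 4. Abcc3 and Abcc4 reached down to 1.95 and 1.94 CPM per kilobase in control 3, where the highest of the other 4 genes was Abcg2 at 1.35. Abcb1a (2.81) and Abcg2 (2.02) were highest in control 2, where the lowest of the 4 ABCC genes was Abcc4 at 4.20. On average over the controls, Abcb1a, Abcg2 and Abcb1b stood at 1.57, 1.38 and 0.68 CPM per kilobase, and Abcc2 at 0.0117, apart from the rest. Lengths came from GENCODE M21, a GRCm38 annotation, which may differ from the one the authors used.

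The spread within groups differed by gene. The SD of log2 CPM among knockouts was 0.14 for Abcc3, 0.15 for Abcg2, 0.23 for Abcc5 and 0.24 for Abcc4, against 1.96, 0.69, 0.70 and 1.77 among controls. For Abcc1, the SD was 0.62 in knockouts and 0.60 in controls, and for Abcb1a 1.07 in both. Abcc2 had the reverse, 1.36 in knockouts and 0.38 in controls, at control levels of 1 to 3 reads. Before the log, a prior count of 2, scaled to the library, was added to the reads. This narrows the spread of counts as low as those of Abcc2 in controls. The median tested gene had an SD of 0.22 in knockouts and 0.58 in controls.

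The authors' deposited table, made with DESeq2, gives log2 fold changes of 3.19 for Abcc5, 2.67 for Abcc1, 5.41 for Abcc2, 2.98 for Abcc3 and 2.49 for Abcc4, with adjusted p of 2.94e-09, 7.53e-06, 6.49e-06, 0.00347 and 0.0283. In the authors' deposited table Abcg2 has -1.20 (adjusted p of 0.0591), Abcb1a -1.10 (0.360) and Abcb1b 0.42 (0.635). The 5 ABCC genes thus pass as higher in that table, in which 3998 of 22441 genes pass, 1594 of them higher and 2404 lower. Abcc3 and Abcc4 are the members whose call differs from the edgeR test. DESeq2 run on the same counts called 6 of the 8 transporters, the 5 ABCC genes higher and Abcg2 lower, against 11.8% of 17442 genes higher, 14.8% lower and 26.6% in all.

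**Figure D3:**
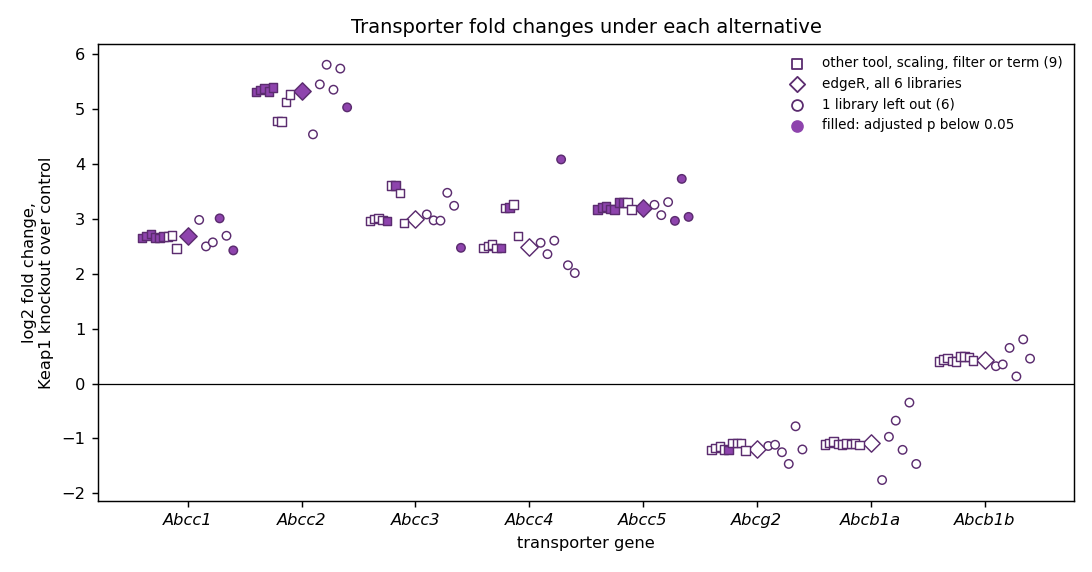
Points give each transporter's log2 fold change (knockout over control) in the edgeR fit of all 6 libraries (diamonds), in 9 fits with another tool, scaling, filter or term (squares), and in 6 fits that leave out 1 library (circles). Filled points have an adjusted p below 0.05. Every point of the 5 Abcc genes lies above 2, every point of Abcg2 and Abcb1a below 0.

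Of 44 other ABC genes listed, 34 were tested, and in edgeR 2 fell and none rose (over all tested genes 1.89% fell and 2.42% rose), with a median log2 fold change of -0.41. DESeq2 called 4 of the 34 higher and 10 lower (11.8% and 14.8% over all genes). limma voom called 1 higher and 2 lower (664 and 403 of 17901 genes). Without control 3, edgeR called 3 of 35 higher and 3 lower, against 1568 and 1641 of 18656 genes. Without control 1 it called 0 higher and 4 lower (358 and 377 of 18805 genes). Without control 2 it called 0 higher and 1 lower (147 and 122 of 19006 genes). Abca1, which exports cholesterol and phospholipid to lipoproteins, stood at 30.2, 23.9 and 24.0 CPM in knockouts and 90.8, 160 and 153 CPM in controls, and fell by 2.37 on the log2 scale (SE 0.28; adjusted p of 0.0273 by edgeR). Abca2, a lipid transporter of endolysosomes, fell by 1.76 (SE 0.34; adjusted p of 0.0496 by edgeR). The call of Abca2 held in 8 of 15 alternatives and that of Abca1 in 10 of 15. The rise was not common to the ABCC genes outside the set. For Abcc8, Abcc9 and Abcc10 the groups overlapped, with log2 fold changes of 1.59, -3.51 and -0.25, and edgeR called none of them. Among the 10 genes that the filter removed were the ABCC genes Abcc6 and Abcc12, with at most 0.248 CPM in any library.

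**Figure D4:**
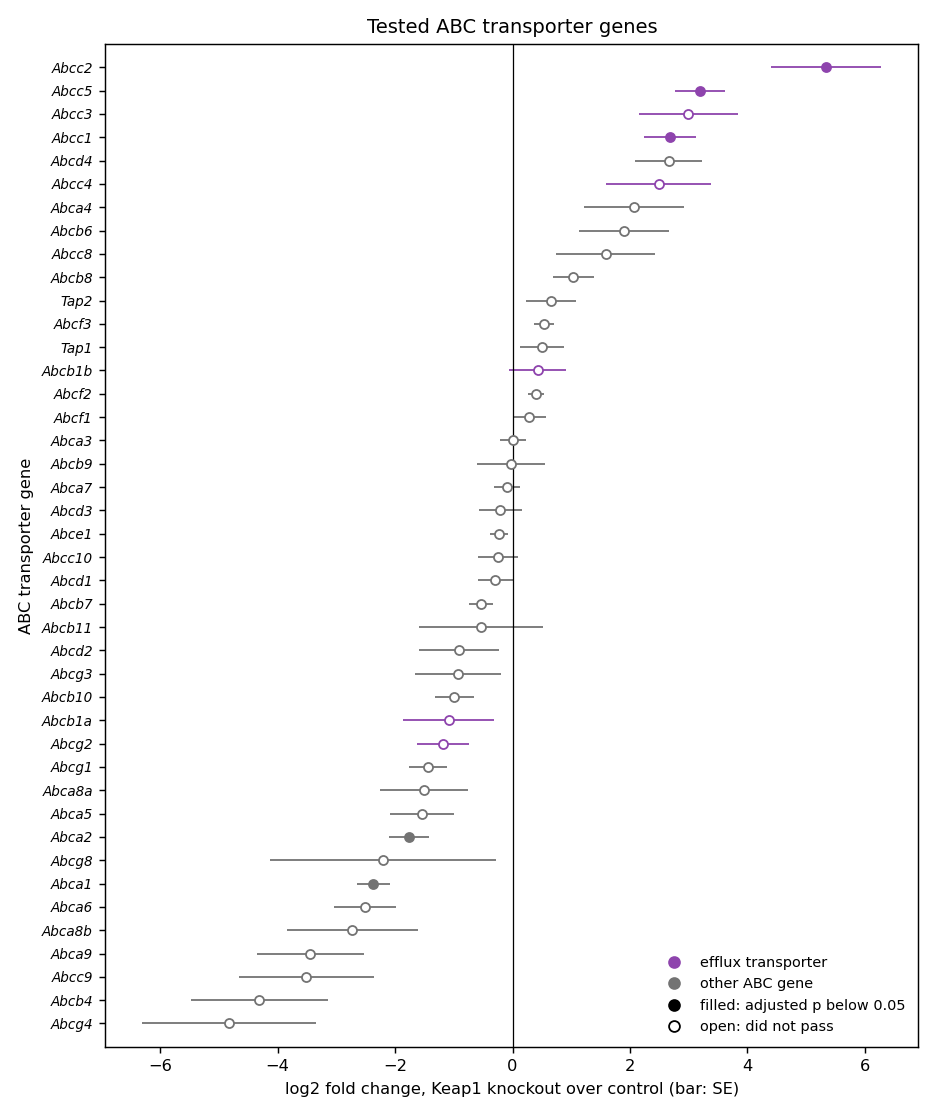
Log2 fold changes (knockout over control) with SE of the 42 tested ABC genes, the 8 efflux transporters in purple and the 34 others in grey, filled where the adjusted p is below 0.05. The 5 Abcc efflux genes are among the 6 highest values, and Abcg2 and Abcb1a lie among the negative ones.

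Of the genes of glutathione synthesis and conjugation, 12 of 26 tested rose and none fell in edgeR (over all tested genes 2.42% rose), with a median log2 fold change of 3.28. The 12 include the synthesis genes Gclc, Gclm and Gss. DESeq2 called 22 higher (11.8% over all genes) and limma voom 17 (664 of 17901 genes). Without control 2 edgeR called 5 (147 of 19006 genes), and without control 3 it called 21 (1568 of 18656 genes). In 23 of the 26 every knockout lay above every control, against 21.5% of all tested genes. Gss, the second enzyme of glutathione synthesis, stood at 462 ± 49.4 CPM in knockouts and 27.7 ± 7.16 CPM in controls, and Gclm, the modifier subunit of the first, at 1183 ± 223 CPM in knockouts and 85.3 ± 27.8 CPM in controls (SD, n = 3 each). The transferase gene Gstm1 rose by 6.35 ± 0.55 on the log2 scale (SE; adjusted p 0.0171 in edgeR). Glutathione transferases include near copies, so reads may be split among them. These genes were already known to respond in these data, and the list is no independent evidence.

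Of 15 tested genes of glucuronidation and sulfation, Ugdh and Sult2b1 rose and none fell in edgeR (over all tested genes 2.42% rose and 1.89% fell), with a median log2 fold change of 0.33. DESeq2 called 4 higher and 2 lower (11.8% and 14.8% over all genes), and limma voom 2 higher and 0 lower (664 and 403 of 17901 genes). Without control 3 edgeR called 2 of 19 higher and 1 lower (1568 and 1641 of 18656 genes). Without control 2 it called 0 either way (147 and 122 of 19006 genes). Ugdh, which makes the UDP-glucuronate for glucuronide synthesis, stood at 654, 897 and 826 CPM in knockouts and 190, 160 and 55.4 CPM in controls. Its log2 fold change was 2.55 ± 0.49 (SE; adjusted p of 0.0478 by edgeR). The sulfotransferase gene Sult2b1 stood at 44.1 ± 2.58 CPM in knockouts and 9.81 ± 3.02 CPM in controls (SD, n = 3 each), with a log2 fold change of 2.17 ± 0.28 (SE; adjusted p of 0.0304 by edgeR). The other 15 genes of the list were below the filter, and 5 of these had no read in any library.

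Of 18 tested solute carriers for drugs and organic ions, Slc22a5 rose and none fell in edgeR (2.42% and 1.89% over all tested genes). The median log2 fold change was -0.39. DESeq2 called 5 of the 18 higher and 2 lower (11.8% and 14.8% over all genes), and limma voom 1 higher and 0 lower (664 and 403 of 17901 genes). Without control 3 edgeR called 3 of 21 higher and 4 lower (1568 and 1641 of 18656 genes). Without control 2 it called 0 either way (147 and 122 of 19006 genes). The same values over all genes stand beside the regulator and scaffold counts below. Slc22a5, the carnitine transporter, stood at 64.2, 82.9 and 97.8 CPM in knockouts and 33.2, 20.6 and 28.3 CPM in controls, a log2 fold change of 1.58 ± 0.26 (SE; adjusted p of 0.0402 by edgeR). Of 18 tested regulators of xenobiotic and oxidant responses, edgeR called 1 higher and 0 lower, DESeq2 3 higher and 1 lower, and limma voom 2 higher and 0 lower. Without control 3 edgeR called 3 higher, and without control 2 it called 0. The gene that passed in edgeR was Maff, whose protein pairs with NRF2 on DNA, at 57.4 ± 8.87 CPM in knockouts and 23.7 ± 4.24 CPM in controls (SD, n = 3 each; log2 fold change of 1.28 ± 0.23, SE, adjusted p of 0.0436 by edgeR). The pregnane and constitutive androstane receptor genes Nr1i2 and Nr1i3, regulators of ABC genes in liver, were below the filter. Among 10 tested scaffold and trafficking partners of membrane transporters edgeR, DESeq2 and limma voom each called 0. Only 1 had an unadjusted p below 0.05 in edgeR (30.7% over all tested genes), which called 1 lower without control 3. The gene with the smallest p, Ezr, which encodes the cortical linker ezrin, stood at 749 ± 84.4 CPM in knockouts and 394 ± 180 CPM in controls (SD, n = 3 each; adjusted p of 0.147 by edgeR). The edgeR calls of Gss, Gclm, Gstm1, Sult2b1, Ugdh, Slc22a5, Maff, Abca1 and Abca2 all ended without knockout 1, 2 or 3.

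**Figure D5:**
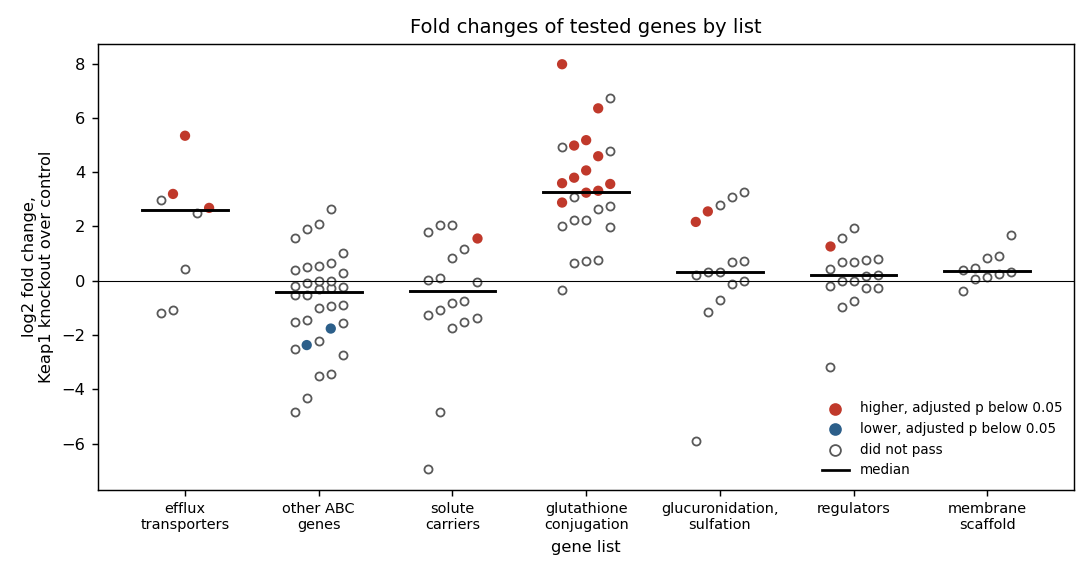
Each point is the log2 fold change (knockout over control) of 1 tested gene, by list, and the bar is the list's median. Filled points passed at an adjusted p below 0.05 (red higher, blue lower). Efflux transporters and glutathione conjugation have medians of 2.59 and 3.28, and the other lists lie between -0.41 and 0.36.

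The genes next to the transporters on the chromosomes were read from the same fit. Of the 10 flanking protein-coding genes that were tested and are not members, none rose and Cacna1g fell (over all tested genes 2.42% rose and 1.89% fell). With so few genes and such shares, these counts say little about the neighbours. Cacna1g, a calcium channel gene beside Abcc3, stood at 1.49, 0.412 and 0.440 CPM in knockouts and 6.65, 40.7 and 58.5 CPM in controls, a log2 fold change of -5.49 ± 1.05 (SE; adjusted p of 0.0478 by edgeR). Eif2b5, beside Abcc5, had a log2 fold change of 0.41, Fopnl, beside Abcc1, one of 0.70, and Cutc and Dnmbp, on both sides of Abcc2, 0.68 and 0.46, without passing. Abcb4, a phospholipid exporter gene next to Abcb1b, stood at 0.140, 0.321 and 0.440 CPM in knockouts and 0.558, 5.90 and 11.8 CPM in controls (adjusted p of 0.0799 by edgeR).

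The members' own profiles over the 6 libraries were alike among the ABCC genes. Pearson correlations of log2 CPM between pairs of the 5 ran from 0.771 (Abcc4 and Abcc5) to 0.937 (Abcc3 and Abcc4), and those of Abcg2 with them from -0.909 to -0.655, as a description over 6 libraries that share the group difference. Among 12704 or 12705 other tested genes with a mean of at least 5 CPM, the most alike were Txn1 (0.999) and Gm49083 (0.997) for Abcc1, Trim27 (0.990) and Ptpn23 (0.989) for Abcc2, D630039A03Rik (1.00) and Gcsh (0.999) for Abcc3, Scel and Tmem184a (0.997 each) for Abcc4, and Gm8113 and Gstt2 (0.998 each) for Abcc5. Those for Abcg2 were Nek9 (0.997) and Slc29a3 (0.995), for Abcb1a Smad7 (0.982) and Galnt6 (0.981), and for Abcb1b Csk (0.972) and Cemip (0.970). Txn1, the cytosolic thioredoxin gene, stood at 707, 1269 and 1265 CPM in knockouts and 284, 218 and 154 CPM in controls, and shares with Abcc1 the low value in knockout 1.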

How the data were processed

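Paired-end mRNA-seq was done on 6 samples, per the labels. Per the submitters' processing notes, STAR, the mouse build mm39 and DESeq2 were used; the counting tool, annotation, strand setting and treatment of multi-mapping reads are not stated in what was available here. The authors deposited raw counts per Ensembl gene, and a comparison table with a mean normalized signal, log2 fold changes with their errors, Wald scores and p-values. Symbols were paired with 52073 of 56980 identifiers.

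The counts were filtered with filterByExpr, scaled by TMM and tested with edgeR 4.0.16 (glmQLFit and glmQLFTest, genotype as the only term, 6 libraries, Benjamini-Hochberg adjustment over 17901 genes, threshold 0.05) in R 4.3.3. The fit was tested on simulated data. DESeq2 1.42.0 and limma 3.58.1 served as alternatives, with other scalings, filters, a replicate block, an Xist term and leaving out each library. Exon lengths, neighbours and shared 50-base stretches came from GENCODE M21 (GRCm38), and promoter windows from RefSeq (GRCm38.p6), with no coordinates converted. Totals of 18731515 to 23759892 reads limit the precision of low genes. Counting intervals cover counting error only.

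The members and gene lists were chosen with earlier results of these data known. All 8 members are named. Of each list, up to 3 genes with the smallest adjusted p among those that passed are named, or the gene with the smallest p where none passed, and for each member the 2 genes with the most similar profile. Any gene named outside this rule was picked with its values in view.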

Additional observations from a re-analysis of the deposited data

How the results depend on the processing

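edgeR called 433 genes higher and 338 lower. Without a filter on low counts it called 283 and 182, with the Xist level as a term 22 and 5, and at an adjusted p below 0.1 1475 and 1642. DESeq2 called 2060 higher and 2582 lower, and limma voom 664 higher. With the replicate number as a replicate block edgeR called 0 genes either way (4026 at an unadjusted p below 0.05) and 0 transporters; deviations of same-numbered libraries correlated at 0.00012 to 0.0507, and not every library correlated best with its own number, so the numbers are not shown to pair the samples. Leaving out 1 library gave 0 to 1568 genes higher, 0 to 1641 lower and 0 to 4 transporters higher; without knockouts 1, 2 and 3 it was 2, 0 and 0 genes higher and 0 lower (3758, 3372 and 3321 at an unadjusted p below 0.05), and without control 3 the highest counts. DESeq2 called 5 transporters higher and 1 lower, and the fit with Xist 0. Over 15 alternative fits no transporter changed direction: of 120 values 92 kept their side of the threshold, 21 lost and 7 gained a call. For the other named genes, 111 of 165 kept their side and 54 lost a call. Splitting libraries by Xist, an alternative chosen after seeing the data, turned Abcb1a to 0.45 among low-Xist libraries and Abcb1b to -0.23 among high-Xist ones. Apart from the filter, the threshold and the libraries left out, the cause was not tested. With 3 libraries a group, and 1 to 3 reads of Abcc2 in controls, precision is limited.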

Other observations

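Several ABC and solute carrier genes outside the set differed widely between the group means without passing the edgeR test, and are named here after their values were seen. Abcd4, a lysosomal cobalamin transporter gene, stood at 95.1 ± 19.6 CPM in knockouts and 15.1 ± 9.37 CPM in controls (SD, n = 3 each), and edgeR put the log2 fold change at 2.66 (adjusted p 0.0575). The cholesterol exporter gene Abcg1 stood at 22.8 ± 4.22 CPM in knockouts and 61.6 ± 21.6 CPM in controls (SD, n = 3 each; log2 fold change of -1.43, adjusted p of 0.0602 by edgeR). The organic cation transporter gene Slc22a4, beside Slc22a5 in the same family, averaged 22.2 CPM in knockouts and 5.32 CPM in controls, with an adjusted p of 0.139 by edgeR. Abcc9, a subunit gene of ATP-sensitive potassium channels and no exporter, averaged 3.70 CPM in knockouts and 42.2 CPM in controls, of which control 2 held 102 CPM (adjusted p of 0.111 by edgeR).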
